A study of Mus musculus with 20 samples.

Results

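Liver gene expression was compared between mice that breathed PM2.5 and mice that drank metformin. In both groups several genes of fat synthesis were lower than in mice with filtered air. All mice were male and carried the ob/ob genotype, which removes the appetite hormone leptin and makes the animals obese, so each group is a model of the obese, leptin-deficient liver only. Of the 20 arrays in the series, 10 belong to the comparison: 5 labelled as PM2.5 exposure and 5 labelled as drinking metformin, chosen by these source labels alone. PM2.5 is fine airborne particulate matter, and the mice with it spent 6 hours per day in an exposure chamber for 2 weeks. Metformin, a glucose-lowering drug, was given in the water at a dose set by body weight, and the labels of these mice name no air treatment. The 5 filtered-air mice served as a reference level, and 5 further mice with PM2.5 and metformin together entered the fit for the estimate of the spread. Each array read the liver RNA of 1 mouse. Mouse numbers within a group follow deposition order and link no animals across groups. No label gives an hour of killing, feeding state at killing, litter or batch, and chamber stay and particles cannot be told apart.

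The liver makes fatty acids from acetyl-CoA when food is plentiful, a programme run by enzymes such as Fasn and Acly and switched on by insulin and sugar through SREBP-1c and ChREBP. In fasting or under hormonal stress the liver turns to burning fat and making glucose, and Pdk4 then keeps pyruvate from being oxidised. The liver also carries its own circadian clock, in which Arntl (BMAL1) drives Per, Cry and Rev-erb genes that shut Arntl off in turn, so that Arntl and its targets such as Dbp peak at opposite hours. Secreted proteins are folded in the endoplasmic reticulum by chaperones that rise together when unfolded protein builds up.

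Of 11703 genes tested, 205 (1.75%) differed between PM2.5 and metformin at an adjusted p under 0.05 (limma, Benjamini-Hochberg over all genes, two-sided), and such genes are said to have passed. In the PM2.5 mice 121 (1.03%) were higher and 84 (0.718%) lower than in the metformin mice, and 187 of the 205 differed at least 1.5-fold. The share of higher genes was 59.0%, but it was 50.4% with quantile normalization, 45.8% with median centring and 40.1% with the negative-control signal as a covariate, so no balance between the directions is read from it. For 148 of the 205, every PM2.5 mouse lay beyond every metformin mouse, as did 500 (4.27%) of all tested genes, and 1834 (15.7%) had an unadjusted p under 0.05. These shares are the background for the list counts below. A single call in a list is given as a description of that gene and is not read as a result about the list. Against filtered air, 618 genes (5.28%) passed with PM2.5 and 375 (3.20%) with metformin; both comparisons use the same filtered-air mice. Without PM2.5 mouse 5 the 205 became 49, without PM2.5 mouse 1 they became 262, and without filtered-air mouse 3 they became 129.

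Values are log2 signals, and differences are PM2.5 minus metformin on the log2 scale with their standard error unless stated otherwise. Arrays within a group correlated across genes at 0.9877 to 0.9931 with PM2.5 and at 0.9851 to 0.9924 with metformin, and array medians over all 20 ran from 4.77 to 4.92. The median difference over all tested genes was 0.02. Negative-control probe sets had a mean median of 4.49 and a mean 95th percentile of 8.36, with 44.5% of tested genes over the latter. The median of the negative controls did not differ detectably between the groups (-0.06, exact permutation p = 0.119, two-sided), while that of the positive controls differed by -0.15 (exact permutation p = 0.0397, 0.198 adjusted over 5 measures). All 12 tested hepatocyte markers lay above 8.36, and 0 differed at an adjusted or an unadjusted p under 0.05, with a median difference of -0.02. In whole liver, fewer cells of a type and less RNA per cell cannot be told apart.

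The largest differences among named genes were those of Cdkn1a and Pdk4, both higher with PM2.5. Cdkn1a, the gene of the cell cycle brake p21, had signals of 11.30, 12.86, 8.81, 10.67 and 11.69 in PM2.5 mice 1 to 5 and of 5.99, 4.28, 9.22, 8.08 and 8.13 in metformin mice 1 to 5. PM2.5 mouse 3 lay below metformin mouse 3, so the groups overlapped at that pair, and metformin mouse 2 lay below the negative-control median. The difference was 3.92 ± 0.91 (15.2-fold, adjusted p = 0.0319). Metformin mice averaged 7.14 ± 1.98 and filtered-air mice 6.54 ± 1.10 (SD, n = 5), a difference that did not pass (0.60 ± 0.91, adjusted p = 0.769), whereas PM2.5 was 4.52 ± 0.91 above air (adjusted p = 0.00657). Both of the lower means lay under 8.36, so background limits the size of the fold. The Cdkn1a call was lost without PM2.5 mouse 2, 4 or 5 or metformin mouse 1, 2, 4 or 5 (adjusted p 0.0181 to 0.0898 over the 10 fits).

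Pdk4, the kinase that switches off pyruvate dehydrogenase, read 11.65, 11.70, 9.70, 10.59 and 11.60 in the PM2.5 livers and 8.62, 7.53, 8.46, 7.85 and 8.17 in the metformin livers, with no overlap. Its difference was 2.92 ± 0.41 (7.57-fold, adjusted p = 0.000713) and passed in each of the 10 fits that left out 1 of these mice (highest adjusted p = 0.00409). The mean of the filtered-air livers lay between them at 9.39 ± 0.49: PM2.5 was 1.66 ± 0.41 above them (adjusted p = 0.021), and metformin was at -1.26 ± 0.41, which did not pass (adjusted p = 0.0895) although every metformin mouse lay below every air mouse. The metformin mean of 8.13 lay under 8.36, so background can limit the size of the Pdk4 fold. Sgk1, a kinase induced by glucocorticoids, had values of 9.85, 10.33, 9.88, 10.61 and 10.53 with PM2.5 and a tight 8.88, 8.81, 9.005, 8.66 and 8.84 with metformin. It differed by 1.40 ± 0.20 (2.64-fold, adjusted p = 0.000764), and metformin mice overlapped air mice (-0.18 ± 0.20, adjusted p = 0.667).

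**Figure D1:**
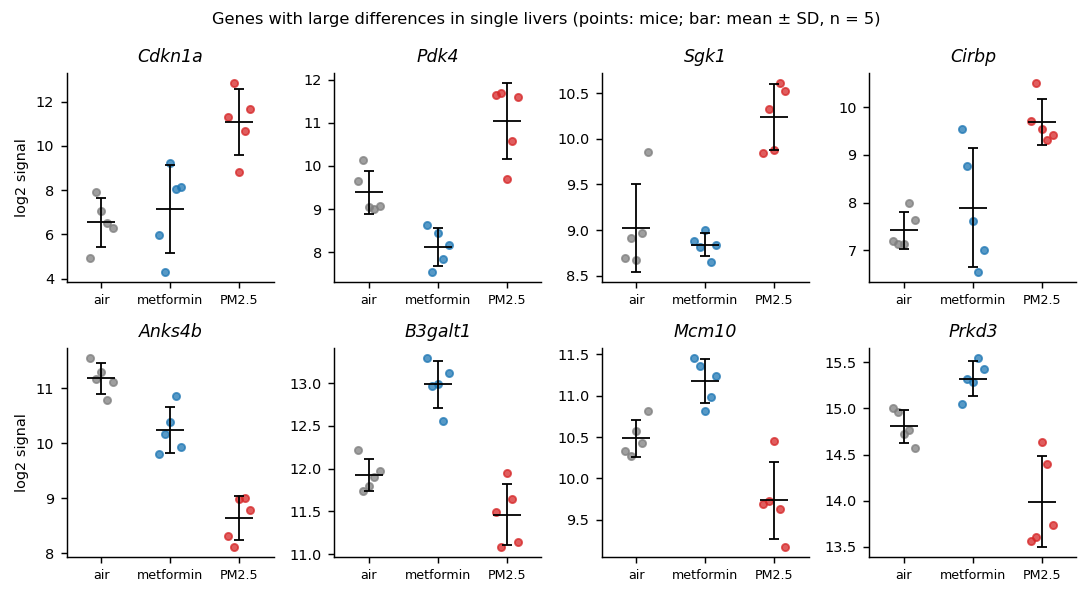
Log2 signal (vertical axis) in single livers for 8 genes, with grey points for filtered air, blue for metformin and red for PM2.5 and bars for the mean ± SD of 5 mice. Pdk4 and Sgk1 in the PM2.5 mice lie above every metformin mouse, Cdkn1a and Cirbp overlap, and Anks4b, B3galt1, Mcm10 and Prkd3 lie below every metformin mouse.

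Of the 21 tested glucocorticoid-induced genes, 3 were higher with PM2.5 (Sgk1, Pdk4 and Cdkn1a) and 0 lower, beside 1.03% and 0.718% of all genes. The list median was 0.21, beside 0.02 for all genes. At an unadjusted p under 0.05 (limma), 6 of the 21 were higher and 0 lower, beside 15.7% of all genes. Against air, 9 of the 21 passed as higher with PM2.5 and 5 with metformin, and 0 as lower with either. The list medians against air were 0.90 and 0.60, and 5.28% and 3.20% of all genes passed against air in either direction. Other members of that list did not pass between the treatments: Pck1, the first committed enzyme of glucose synthesis, was at -0.01 ± 0.20 (adjusted p = 0.993), and Per1, a clock gene that glucocorticoids also induce, was at 0.66 ± 0.43 (adjusted p = 0.486). Of 34 tested genes of fat oxidation and PPAR-alpha, Pdk4 alone passed, and the list median was -0.06. Cdkn1a was likewise the only 1 of 14 p53 targets that passed.

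Cirbp, a cold-inducible RNA-binding protein that also cycles through the day, read 9.71, 10.51, 9.54, 9.30 and 9.41 with PM2.5 and 9.54, 8.78, 7.61, 6.54 and 7.003 with metformin. Metformin mouse 1 lay inside the PM2.5 range and mice 3, 4 and 5 well below it. The difference was 1.80 ± 0.41 (adjusted p = 0.0302), lost without PM2.5 mouse 2, 4 or 5 or metformin mouse 3, 4 or 5 (adjusted p 0.00249 to 0.0895 over the 10 fits). Rbm3, the other cold-inducible protein named, did not pass (0.22 ± 0.25, adjusted p = 0.737). Of the 11 tested genes of the cold-inducible and heat shock list Cirbp was the only 1 that passed. The list leaned the other way, with 9 of the 11 differences below 0 and a median of -0.33. At an unadjusted p under 0.05 (limma), 4 were lower and 1 higher.

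Fabp5, a carrier of fatty acids, was 8.12, 7.09, 9.22, 8.98 and 9.11 in PM2.5 mice against 6.72, 5.93, 6.65, 6.002 and 5.87 in metformin mice, without overlap. It differed by 2.27 ± 0.51 (4.81-fold, adjusted p = 0.0295), and the call was lost without PM2.5 mouse 3, 4 or 5 or metformin mouse 2, 4 or 5 (adjusted p 0.0237 to 0.0888 over the 10 fits). The metformin mean of 6.24 lay under 8.36, so background can limit the size of the fold. Here metformin was the group away from air: it lay -3.38 ± 0.51 from the air mean of 9.61 ± 0.99 (adjusted p = 0.000719), and PM2.5 lay -1.11 ± 0.51 from it, which did not pass (adjusted p = 0.201). Dbi, the acyl-CoA binding protein, was the other member of 15 tested fatty acid binding genes that passed, higher by 0.49 ± 0.12 (adjusted p = 0.0466), and it was lost in each of the 10 leave-one-out fits (adjusted p 0.052 to 0.123 over the 10 fits). These 2 were higher with PM2.5 and 0 of the 15 lower, beside 1.03% and 0.718% of all genes. At an unadjusted p under 0.05 (limma), 5 of the 15 were higher and 1 lower, beside 15.7% of all genes in either direction. Cd36, a fatty acid uptake receptor named after its value was seen, was at 0.05 ± 0.15 (adjusted p = 0.909).

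Among the genes lower with PM2.5, several were more evenly separated than Cdkn1a. B3galt1, a galactosyltransferase of glycan synthesis, was 11.50, 11.08, 11.95, 11.65 and 11.14 with PM2.5 and 13.30, 12.97, 12.99, 12.56 and 13.11 with metformin. Its difference was -1.52 ± 0.17 (adjusted p = 7.34e-05). Against air (11.92 ± 0.19), metformin mice were higher by 1.06 ± 0.17 (adjusted p = 0.00142), and PM2.5 mice were at -0.46 ± 0.17 (adjusted p = 0.113). Anks4b, a scaffold protein of epithelial cells, had its highest values in air: PM2.5 read 8.31, 8.10, 8.99, 8.996 and 8.79, metformin 9.81, 10.18, 10.39, 10.86 and 9.93 and air 11.56, 11.17, 11.29, 10.78 and 11.11. Both treatments were below air, at -2.55 ± 0.24 with PM2.5 (adjusted p = 2.72e-06) and -0.95 ± 0.24 with metformin (adjusted p = 0.0322), and PM2.5 was the lower, at -1.60 ± 0.24 (adjusted p = 0.00122).

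Mcm10, a DNA replication factor, was 9.70, 9.73, 10.45, 9.63 and 9.17 with PM2.5 and 11.46, 11.36, 10.82, 10.98 and 11.24 with metformin, a difference of -1.44 ± 0.20 (adjusted p = 0.000713), and its air mean of 10.48 ± 0.22 lay between them. None of the 16 listed DNA replication and cell cycle genes passed (0 by limma, 2 at an unadjusted p under 0.05, both higher), and Mcm10 is not among these 16. Of the 16, 15 had differences above 0, opposite to Mcm10, with a median of 0.25. Only 2 of the 16 had a mean signal above 8.36. Prkd3, a protein kinase D, was 13.56, 13.61, 14.63, 14.40 and 13.74 with PM2.5 and 15.04, 15.32, 15.29, 15.55 and 15.42 with metformin and differed by -1.34 ± 0.25 (adjusted p = 0.0107). Plcxd2, named for a phospholipase C-like domain, differed by -2.19 ± 0.45 (adjusted p = 0.0181), a call lost without PM2.5 mouse 2 or 5 (adjusted p 0.00616 to 0.0513 over the 10 fits). A pair of pseudogenes was lower with PM2.5, Adh6-ps1 at -1.51 ± 0.22 (adjusted p = 0.000768) and Cyp2d37-ps at -1.50 ± 0.21 (adjusted p = 0.000713); which copy of their families the probes read is uncertain. B3galt1, Anks4b, Mcm10, Prkd3 and both pseudogenes passed in all 10 leave-one-out fits, with highest adjusted p of 0.000553, 0.00722, 0.00358, 0.0385, 0.00451 and 0.00409 in that order.

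Arntl and Dbp separated the groups in opposite directions. Arntl, the activator at the centre of the clock, was 10.46, 10.46, 9.43, 10.56 and 10.36 in PM2.5 mice and 7.97, 6.75, 7.35, 7.77 and 8.13 in metformin mice, with every air mouse from 8.90 to 9.66. Its difference of 2.66 ± 0.26 (6.31-fold) had an adjusted p of 1.25e-05, and it passed in all 10 leave-one-out fits. The metformin mean of 7.59 lay under 8.36, so background can limit the size of the fold. Both groups differed from air, PM2.5 higher by 1.09 ± 0.26 (adjusted p = 0.0195) and metformin lower, at -1.57 ± 0.26 (adjusted p = 0.0019). Dbp, a transcription factor that Arntl drives, mirrored it: 11.56, 12.22, 13.14, 11.87 and 12.23 with PM2.5 and 14.76, 15.28, 14.69, 14.53 and 14.31 with metformin, a difference of -2.51 ± 0.32 (adjusted p = 0.000378). Dbp was above air by 1.54 ± 0.32 with metformin (adjusted p = 0.0117), while PM2.5 was at -0.97 ± 0.32 (adjusted p = 0.0757).

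**Figure D2:**
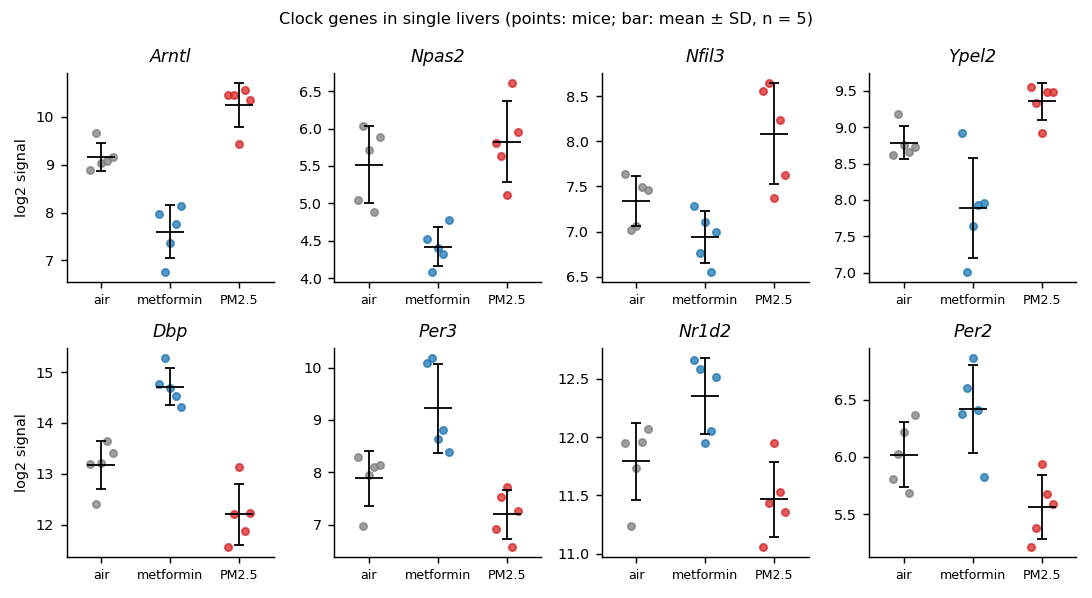
Log2 signal (vertical axis) of clock genes in single livers, grey for filtered air, blue for metformin and red for PM2.5, with bars for mean ± SD of 5 mice. The mean of Arntl is highest with PM2.5 and lowest with metformin, with air between, and the means of Dbp and Per3 run in the opposite order.

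Of 15 tested core clock genes, 3 were higher and 2 lower with PM2.5, beside 1.03% and 0.718% of all genes. Npas2, a partner protein of Arntl, was higher by 1.40 ± 0.28 (adjusted p = 0.0164), but the metformin mean of 4.42 ± 0.26 was below the negative-control median, so the size is limited by the floor. Nfil3, a repressor that opposes Dbp at shared sites, was higher by 1.15 ± 0.23 (adjusted p = 0.0161) at signals of at most 8.65. Per3, a period gene, was 6.91, 7.54, 7.72, 6.57 and 7.26 with PM2.5 and 10.08, 10.19, 8.63, 8.81 and 8.39 with metformin, lower, at -2.02 ± 0.42 (adjusted p = 0.0202). Nr1d2, a Rev-erb repressor named after its value was seen, was lower, at -0.89 ± 0.19 (adjusted p = 0.0202), and its relative Nr1d1 was at 0.34 ± 0.25 (adjusted p = 0.547). Per2 did not pass, at -0.86 ± 0.22 (adjusted p = 0.0519). Without PM2.5 mouse 5 the core clock count dropped to 2. Per3 was lost without PM2.5 mouse 4 or 5 (adjusted p 0.0223 to 0.0609 over the 10 fits), Npas2 without PM2.5 mouse 4 or 5 (adjusted p 0.00893 to 0.052 over the 10 fits) and Nr1d2 without PM2.5 mouse 5 or metformin mouse 5 (adjusted p 0.0111 to 0.0599 over the 10 fits), while Nfil3 passed throughout.

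Of 12 tested clock output genes, 3 were higher with PM2.5 (Cirbp, Ypel2 and Lonrf3) and 1 lower (Dbp), beside 1.03% and 0.718% of all genes. Ypel2 was 9.55, 9.33, 8.92, 9.49 and 9.48 with PM2.5 and 8.92, 7.01, 7.64, 7.93 and 7.96 with metformin, higher by 1.46 ± 0.25 (adjusted p = 0.00741), and passed in all 10 leave-one-out fits. Lonrf3 was higher by 0.92 ± 0.22 (adjusted p = 0.0347) at signals of at most 7.02, a call lost without PM2.5 mouse 2 or 4 or metformin mouse 3, 4 or 5 (adjusted p 0.00396 to 0.0983 over the 10 fits). Cyp7a1, the rate-limiting enzyme of bile acid synthesis and a gene with a daily cycle, was at -1.31 ± 0.38 and did not pass (adjusted p = 0.0803). The part of the hour of killing in these differences was not tested, since the labels do not give it. The output count became 2 without PM2.5 mouse 2 or 4 or without metformin mouse 3 or 4.

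Of 18 tested genes of de novo lipogenesis, 7 passed as lower than air with PM2.5 (background 2.56% lower), with a list median of -0.96, and 15 with metformin (background 1.91%), with a median of -1.77. Directly compared, 5 of the 18 were higher with PM2.5 than with metformin and 0 lower (background 1.03% and 0.718%), and the list median was 0.96. Fasn, the fatty acid synthase, read 12.77, 12.28, 13.63, 14.28 and 14.71 in PM2.5 mice, 11.91, 11.03, 11.50, 13.39 and 10.59 in metformin mice and 15.30, 15.15, 15.51, 15.32 and 15.87 in air mice. PM2.5 and metformin ranges overlapped through metformin mouse 4, and both lay below every air mouse. The difference was 1.85 ± 0.45 (3.61-fold, adjusted p = 0.043), lost without PM2.5 mouse 3, 4 or 5 or metformin mouse 2, 3 or 5 (adjusted p 0.00977 to 0.124 over the 10 fits).

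Acly, which makes cytosolic acetyl-CoA from citrate, was 13.95, 13.44, 14.29, 15.34 and 14.88 with PM2.5 and 13.27, 12.73, 11.51, 13.39 and 11.82 with metformin, with no overlap, and differed by 1.84 ± 0.40 (adjusted p = 0.0249). Acss2, which makes acetyl-CoA from acetate, differed by 1.79 ± 0.40 (adjusted p = 0.0282); with PM2.5 it was not called against air (-0.99 ± 0.40, adjusted p = 0.145), and metformin was at -2.77 ± 0.40 (adjusted p = 0.000452). Me1, the malic enzyme that supplies NADPH, was 16.27, 15.98, 16.03, 15.87 and 16.11 with PM2.5, 14.51, 14.49, 15.36, 15.36 and 14.89 with metformin and 16.05, 16.24, 16.35, 16.57 and 16.85 with air. PM2.5 mice overlapped the air mice (-0.36 ± 0.22, adjusted p = 0.345), and the groups differed by 1.13 ± 0.22 (adjusted p = 0.0151). Thrsp, a small protein that accompanies lipogenesis, was higher by 0.92 ± 0.20 (adjusted p = 0.0277). Me1 passed in all 10 leave-one-out fits, Acly was lost without PM2.5 mouse 4 or 5 or metformin mouse 3 or 5 (adjusted p 0.019 to 0.0793 over the 10 fits), Acss2 without PM2.5 mouse 4 or 5 or metformin mouse 3, 4 or 5 (adjusted p 0.00803 to 0.0801 over the 10 fits) and Thrsp without PM2.5 mouse 4 or 5 or metformin mouse 3 or 5 (adjusted p 0.00339 to 0.0822 over the 10 fits). Without PM2.5 mouse 4 or 5, or without metformin mouse 3 or 5, the count of 5 fell to 1.

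**Figure D3:**
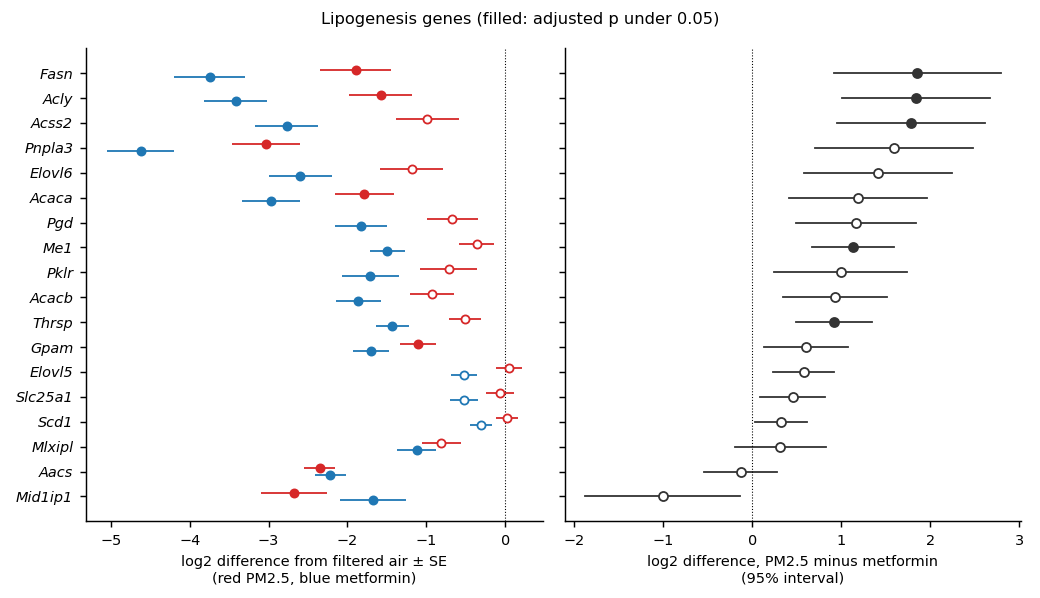
Tested lipogenesis genes, 1 per line. The left panel gives log2 differences from filtered air ± SE for PM2.5 (red) and metformin (blue), and the right panel PM2.5 minus metformin with its 95% interval; filled points passed at an adjusted p under 0.05. Filled points in the right panel are Fasn, Acly, Acss2, Me1 and Thrsp, all to the right of 0.

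Of the other 13 members, 11 had differences above 0 and 2 below, Mid1ip1 at -1.01 ± 0.42 (adjusted p = 0.233) and Aacs at -0.13 ± 0.20 (adjusted p = 0.815), both named after their values were seen. Acaca, the acetyl-CoA carboxylase that commits carbon to fat, was at 1.18 ± 0.37 (adjusted p = 0.108), and Elovl6, an elongase, at 1.41 ± 0.40 (adjusted p = 0.0744) although its groups did not overlap. Pnpla3, a lipid droplet protein that follows feeding, was at 1.59 ± 0.43 (adjusted p = 0.0618), with a metformin mean of 3.65 ± 0.43 below the negative-control median. Scd1, the stearoyl-CoA desaturase, ran from 17.54 to 18.41 over both groups and was at 0.32 ± 0.14 (adjusted p = 0.263). Mlxipl, which encodes the sugar sensor ChREBP, was at 0.31 ± 0.25 (adjusted p = 0.585, 95% interval -0.20 to 0.83). Gpam, which starts glycerolipid synthesis, was at 0.60 ± 0.23 (adjusted p = 0.186).

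Around this pathway fewer genes passed. All 19 tested cholesterol synthesis and uptake genes had differences above 0, with a median of 0.61, yet 0 passed (limma; 5 at an unadjusted p under 0.05, all higher). Sqle, squalene epoxidase, was 9.21, 8.92, 9.62, 10.74 and 10.06 with PM2.5 and 9.23, 11.05, 6.14, 9.20 and 7.05 with metformin, a spread that left 1.18 ± 0.72 uncalled (adjusted p = 0.452). Insig1, a sterol sensor, was at 0.59 ± 0.49 (adjusted p = 0.604). Fads1, a desaturase of polyunsaturated fats named after its value was seen, was the only 1 of 6 in its list that passed (0.89 ± 0.23, adjusted p = 0.0496), and it was lost in all 10 leave-one-out fits (adjusted p 0.0578 to 0.146 over the 10 fits). Hilpda, a lipid droplet protein that inhibits fat breakdown and was also named after its value was seen, was the only 1 of 15 droplet genes that passed, higher by 1.29 ± 0.21 (adjusted p = 0.00287). Its means of 7.45 with PM2.5 and 6.15 with metformin both lay under 8.36, so background can limit the size of this difference.

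Some genes that differed from air in both groups did not pass between the 2 groups. Pck1 was 16.46, 16.70, 16.05, 16.48 and 16.74 with PM2.5 and 16.31, 16.40, 16.51, 16.35 and 16.90 with metformin, against 15.22 ± 0.48 (SD, n = 5) in air. Both were above air, by 1.26 ± 0.20 (adjusted p = 0.0019) and 1.27 ± 0.20 (adjusted p = 0.00131), and the interval of their difference ran from -0.43 to 0.42. Cpt1a, the gate of mitochondrial fat oxidation, was above air by 1.08 ± 0.23 with PM2.5 and 1.38 ± 0.23 with metformin (adjusted p = 0.00985 and 0.0019), with an interval between the treatments from -0.78 to 0.18. Angptl4, an inhibitor of lipoprotein lipase, was above air by 2.46 ± 0.38 and 1.94 ± 0.38, with an interval from -0.28 to 1.30. Herpud1, a protein of the degradation machinery of the endoplasmic reticulum, was above air by 0.95 ± 0.17 and 1.13 ± 0.17, with an interval from -0.54 to 0.17. Angptl8, which feeding induces, was below air with both (-3.19 ± 0.39 and -2.30 ± 0.39), and PM2.5 was at -0.89 ± 0.39 from metformin (adjusted p = 0.263). Unlike the others, its interval left out 0, from -1.69 to -0.08, although it did not pass. Metformin mouse 4 read 12.48 for Angptl8, against 10.72 to 10.98 in the other metformin mice. These intervals still allow differences of the sizes they span.

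Of 19 tested genes of glucose synthesis, 2 were higher with PM2.5 and 0 lower, beside 1.03% and 0.718% of all genes. Got1, an aminotransferase of the malate-aspartate shuttle, differed by 1.14 ± 0.28 (adjusted p = 0.0441), and Sik1, a kinase that restrains CREB, by 1.04 ± 0.26 (adjusted p = 0.0485) at signals of at most 7.91. Got1 was also the only 1 of 22 amino acid and urea cycle genes that passed. It was lost without PM2.5 mouse 2, 4 or 5 or metformin mouse 2, 3, 4 or 5 (adjusted p 0.0275 to 0.12 over the 10 fits), and Sik1 without PM2.5 mouse 2, 3, 4 or 5 or metformin mouse 2, 3, 4 or 5 (adjusted p 0.0384 to 0.139 over the 10 fits). Slc2a1, a glucose transporter named after its value was seen, was the only 1 of 22 glucose use genes that passed, higher by 1.13 ± 0.25 (adjusted p = 0.0272), and was lost without PM2.5 mouse 2, 4 or 5 or metformin mouse 2, 3, 4 or 5 (adjusted p 0.00212 to 0.0822 over the 10 fits). Igfbp1, a binding protein that insulin suppresses, was at 1.27 ± 0.35 (adjusted p = 0.0642), and Igf1 at 0.07 ± 0.10 (adjusted p = 0.821).

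Of 20 tested chaperones and unfolded protein response genes of the endoplasmic reticulum, 5 passed as lower with PM2.5 than with metformin and 0 as higher. Among all genes these shares were 0.718% and 1.03%. The list median was -0.57, and all 20 had differences below 0. The mean deviation of the 20 genes from their averages over all arrays was -0.37 to -0.18 in PM2.5 mice. In metformin mice it was -0.21 to 0.97, so the groups overlapped over the list. Fitting the 10 arrays alone gave 0 calls in this list (limma; 14 at an unadjusted p under 0.05). The promoters of some of these genes carry the endoplasmic reticulum stress element, to which ATF6 and NF-Y bind. The letters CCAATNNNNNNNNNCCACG were searched on both strands in the 250 bases before each start (RefSeq, build GRCm38.p6), a search added after the promoters had been seen, and this element holds the shorter CCACG within it. It was found in 37 of 32851 promoter windows (0.113%) and in 8 of the 18 tested list genes with an entry, among them Calr, Hspa5 and Pdia6. The list was made of genes of this stress response, and promoter letters do not depend on the array values. These shares are therefore not read as a result about the treatments. Of the 4 called genes with an entry, Calr and Pdia6 held the element. Hyou1 and Atf6 had no entry. CCACG alone was in 28.3% of all windows and in 15 of the 18. The metal response letters TGCNCNC were in 44.4% of all windows and in 6 of the 18, and the E-box CACGTG, to which Arntl binds, in 6.02% and in 3 of the 18. Among clock genes with an entry, CACGTG was in 4 of 13 core genes (0 of the 5 called) and 2 of 10 output genes (1 of the 4 called), and the long element in 0 of either list. The windows of the called genes Calr and Pdia6 and of Hspa5 are shown because they hold the element, whose letters are in capitals, 5' to 3' on the strand of the gene (in Calr the element runs on the opposite strand). Positions are those of the first capital letter as printed, which in Calr is at the CCACG end of the element. A match is a description and not a measured binding site.
Calr, chr8:84846932-84847181, minus strand, element starting 162 bases before the start: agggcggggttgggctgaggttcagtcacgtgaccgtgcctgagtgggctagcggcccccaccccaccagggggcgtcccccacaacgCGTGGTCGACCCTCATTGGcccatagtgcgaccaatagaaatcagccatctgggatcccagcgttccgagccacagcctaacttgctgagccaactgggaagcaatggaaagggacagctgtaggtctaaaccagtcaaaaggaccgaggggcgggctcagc
Hspa5, chr2:34771840-34772089, plus strand, element starting 65 bases before the start: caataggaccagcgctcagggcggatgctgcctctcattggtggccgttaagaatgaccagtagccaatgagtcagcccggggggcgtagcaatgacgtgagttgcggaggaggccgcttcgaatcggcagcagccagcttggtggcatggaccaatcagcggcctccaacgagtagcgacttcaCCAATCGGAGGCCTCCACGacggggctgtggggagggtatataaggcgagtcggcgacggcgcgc
Pdia6, chr12:17266339-17266588, plus strand, element starting 98 bases before the start: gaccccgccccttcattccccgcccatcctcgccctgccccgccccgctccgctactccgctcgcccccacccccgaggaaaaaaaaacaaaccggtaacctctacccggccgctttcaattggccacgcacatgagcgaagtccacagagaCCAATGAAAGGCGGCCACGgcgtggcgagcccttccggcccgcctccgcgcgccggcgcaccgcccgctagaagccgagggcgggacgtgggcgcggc

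**Figure D4:**
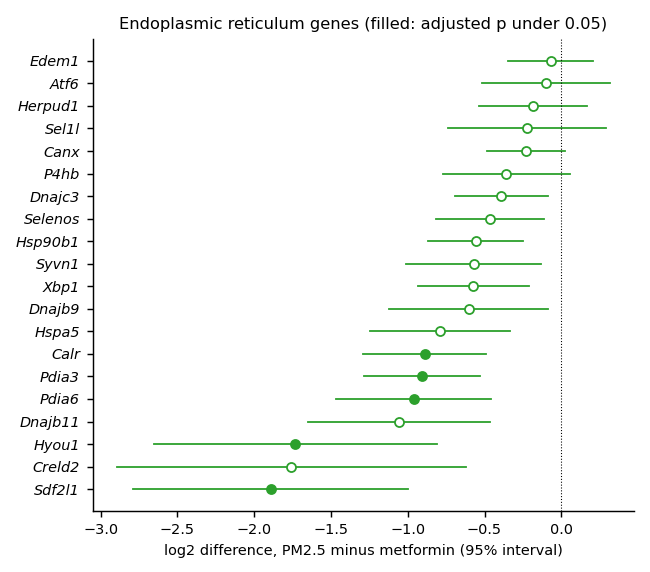
Log2 difference, PM2.5 minus metformin, with its 95% interval (horizontal axis) for the 20 tested endoplasmic reticulum genes, 1 per line; filled points passed at an adjusted p under 0.05. The filled points are Calr, Pdia3, Pdia6, Hyou1 and Sdf2l1, and all 20 points lie to the left of 0.

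Hyou1, a large chaperone of the HSP70 family, was 10.56, 10.83, 10.51, 11.24 and 11.14 with PM2.5, 11.04, 10.83, 13.86, 13.44 and 13.77 with metformin and 11.91, 11.41, 11.52, 11.34 and 11.40 in air. Metformin mice 3, 4 and 5 were above every other mouse, and metformin mice 1 and 2 lay in the PM2.5 range, so the groups overlapped. The difference was -1.73 ± 0.44 (adjusted p = 0.0493). Calr, the calcium-binding lectin chaperone, was 15.51, 16.06, 15.58, 16.05 and 16.07 with PM2.5 and 16.44, 16.11, 17.05, 17.10 and 17.02 with metformin, again with metformin mice 3, 4 and 5 the highest. Its difference was -0.89 ± 0.19 (adjusted p = 0.0249). Pdia3 and Pdia6, disulfide isomerases, were lower, at -0.91 ± 0.18 (adjusted p = 0.0161) and -0.96 ± 0.24 (adjusted p = 0.0465), and Sdf2l1, a stress-induced luminal protein, was at -1.89 ± 0.43 (adjusted p = 0.0303) with a PM2.5 mean of 4.43 ± 0.07 under the negative-control median, which limits its size. Hspa5, the master chaperone BiP, was 16.46, 16.48, 16.84, 16.93 and 16.63 with PM2.5 and 17.06, 16.80, 18.02, 17.74 and 17.68 with metformin, and at -0.79 ± 0.22 it did not pass (adjusted p = 0.0692).

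Against air, Calr was 0.83 ± 0.19 higher with metformin (adjusted p = 0.0212) and Pdia3 0.82 ± 0.18 higher (adjusted p = 0.0174). With PM2.5 these were at -0.06 ± 0.19 and -0.08 ± 0.18 from air and did not pass (adjusted p = 0.893 and 0.827). Hyou1, Pdia6 and Hspa5 did not pass against air with either treatment, although in each of them every PM2.5 mouse lay below every air mouse. Hyou1 was at -0.66 ± 0.44 with PM2.5 (adjusted p = 0.389) and 1.07 ± 0.44 with metformin (adjusted p = 0.19). Pdia6 was at -0.65 ± 0.24 with PM2.5 (adjusted p = 0.111) and 0.31 ± 0.24 with metformin (adjusted p = 0.53), and Hspa5 at -0.51 ± 0.22 (adjusted p = 0.174) and 0.28 ± 0.22 (adjusted p = 0.528). Sdf2l1 was at -0.40 ± 0.43 with PM2.5 (adjusted p = 0.62) and 1.49 ± 0.43 with metformin (adjusted p = 0.0602). Hyou1 was lost without any 1 of the 5 PM2.5 mice or metformin mouse 3, 4 or 5 (adjusted p 0.00721 to 0.139 over the 10 fits), Calr without PM2.5 mouse 3 or metformin mouse 3, 4 or 5 (adjusted p 0.00692 to 0.0748 over the 10 fits), Sdf2l1 without PM2.5 mouse 2, 4 or 5 or metformin mouse 3, 4 or 5 (adjusted p 0.00264 to 0.0843 over the 10 fits), Pdia6 without any 1 of the 5 PM2.5 mice or metformin mouse 3, 4 or 5 (adjusted p 0.0207 to 0.128 over the 10 fits) and Pdia3 without PM2.5 mouse 5 (adjusted p 0.00426 to 0.0513 over the 10 fits). The count of 5 became 1 without PM2.5 mouse 5 or without metformin mouse 3, 4 or 5, and 9 without metformin mouse 2.

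Atf4, a transcription factor of the integrated stress response named after its value was seen, was the only 1 of 15 in that list that passed. It was 12.94, 12.80, 12.78, 13.000 and 12.64 with PM2.5 and 12.39, 12.34, 12.06, 11.89 and 11.96 with metformin, higher by 0.70 ± 0.14 (adjusted p = 0.0147), and the air mean was 12.98 ± 0.09, so that metformin was the group below air (-0.85 ± 0.14, adjusted p = 0.00138). Ddit3, which encodes the stress factor CHOP, was at -0.03 ± 0.19 (adjusted p = 0.969). Metallothioneins, metal-binding proteins, were spread widely with metformin: Mt2 was 17.88, 18.12, 17.21, 17.69 and 17.53 with PM2.5 and 17.59, 17.07, 13.85, 14.20 and 16.82 with metformin, and Mt1 was 17.61, 17.73, 16.93, 17.30 and 17.22 and 17.42, 16.86, 15.65, 14.89 and 16.49. Metformin mice 1 and 2 were near the PM2.5 mice in both, and neither passed (Mt1 1.09 ± 0.36, adjusted p = 0.121; Mt2 1.78 ± 0.60, adjusted p = 0.131). None of 9 in that list passed (0 by limma, 5 at an unadjusted p under 0.05).

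Hmox1, the heme-degrading enzyme induced by oxidative stress, was 10.06, 10.54, 10.71, 12.33 and 10.90 with PM2.5 and 10.46, 9.82, 9.41, 8.75 and 9.19 with metformin and was higher by 1.38 ± 0.36 (adjusted p = 0.0496), a call lost without PM2.5 mouse 2, 3, 4 or 5 or metformin mouse 2, 3, 4 or 5 (adjusted p 0.0254 to 0.147 over the 10 fits). Hmox1 was the only 1 of 18 iron and heme genes that passed. Of 26 tested NRF2 targets, Hmox1 and Me1 were the 2 higher with PM2.5 and 0 were lower, beside 1.03% and 0.718% of all genes. The list median was 0.43, and 21 of the 26 had differences above 0. At an unadjusted p under 0.05 (limma), 14 of the 26 were higher and 1 lower, beside 15.7% of all genes in either direction. Nqo1, a quinone reductase, did not pass (0.63 ± 0.25, adjusted p = 0.211). Tiparp, the only 1 of 7 aryl hydrocarbon receptor targets that passed and named after its value was seen, was higher by 0.68 ± 0.14 (adjusted p = 0.0196) at signals of at most 7.84, and Cyp1a2, a classic target, was at 0.11 ± 0.34 (adjusted p = 0.918). Cyp3a13, also named after its value was seen, was lower, at -0.70 ± 0.15 (adjusted p = 0.0196) and the only 1 of 29 genes of P450 families 2 and 3 and their receptors that passed. Tiparp was lost without PM2.5 mouse 2, 4 or 5 (adjusted p 0.0167 to 0.0609 over the 10 fits), and Cyp3a13 without PM2.5 mouse 5 (adjusted p 0.0267 to 0.0656 over the 10 fits).

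Of 16 tested endothelial markers, 4 passed as higher with PM2.5 and 0 as lower, beside 1.03% and 0.718% of all genes. All 16 had differences above 0, with a median of 0.59. Stab2, a scavenger receptor of the sinusoids, was 7.90, 8.25, 8.78, 8.55 and 8.97 with PM2.5 and 7.87, 7.20, 6.89, 7.45 and 7.66 with metformin, a difference of 1.08 ± 0.19 (adjusted p = 0.00892) that passed in all 10 leave-one-out fits. Pecam1, an adhesion protein of endothelium, differed by 0.73 ± 0.18 (adjusted p = 0.044), Kdr, a VEGF receptor, by 0.63 ± 0.16 (adjusted p = 0.0441), and Emcn, a surface sialomucin, by 0.59 ± 0.15 (adjusted p = 0.0496). Pecam1 was lost without PM2.5 mouse 2, 3, 4 or 5 or metformin mouse 1, 2, 3 or 4 (adjusted p 0.0391 to 0.111 over the 10 fits), Kdr without PM2.5 mouse 1, 2, 3 or 5 or metformin mouse 2, 3, 4 or 5 (adjusted p 0.0307 to 0.129 over the 10 fits) and Emcn without PM2.5 mouse 2, 3, 4 or 5 or any 1 of the 5 metformin mice (adjusted p 0.036 to 0.132 over the 10 fits). The log2 of the summed marker signal was 14.91 to 15.32 with PM2.5, 14.54 to 15.004 with metformin and 14.77 to 15.21 with air, so the first 2 ranges overlapped. The brightest markers weigh most in such a sum. With equal weight, the mean deviation of the markers from their averages over all arrays was 0.21 to 0.54 in PM2.5 mice. In metformin mice it was -0.37 to -0.04, without overlap. The count of 4 became 1 with median centring, with no filter on dim genes, or without any 1 of PM2.5 mice 2, 3 and 5 and metformin mice 2, 3 and 4.

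**Figure D5:**
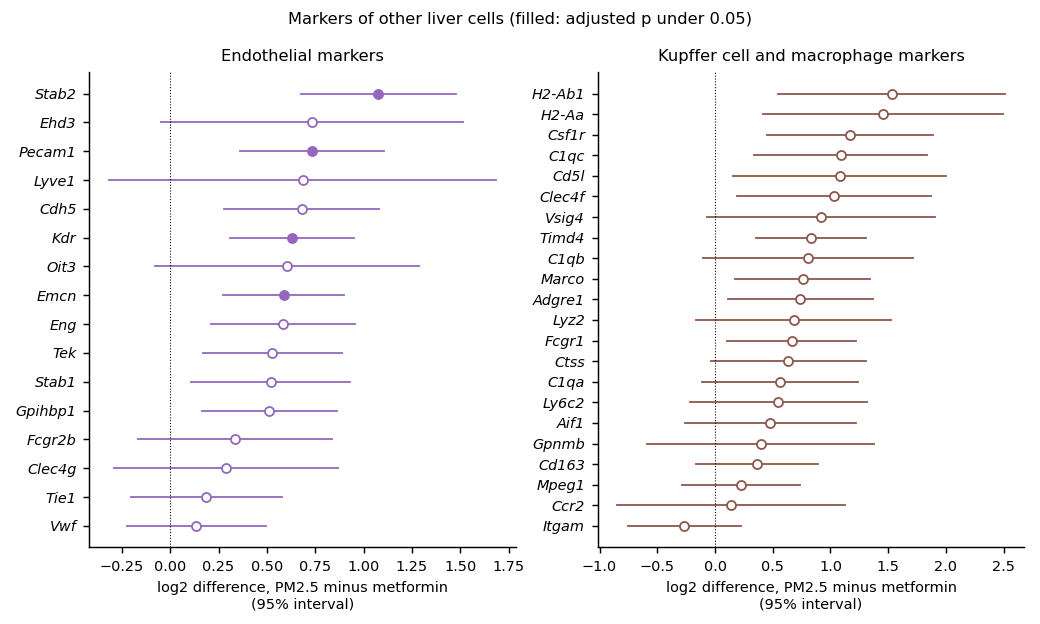
Log2 difference, PM2.5 minus metformin, with its 95% interval (horizontal axes) for 16 endothelial markers (left) and 22 Kupffer cell and macrophage markers (right), 1 gene per line; filled points passed at an adjusted p under 0.05. All endothelial points lie to the right of 0 with 4 filled, and 21 of the macrophage points lie to the right of 0 with 0 filled.

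None of 22 tested Kupffer cell and macrophage markers passed (0 by limma), 21 had differences above 0 and the median was 0.71. At an unadjusted p under 0.05, 10 of the 22 were higher, beside 15.7% of all genes in either direction. In 9 of the 22 every PM2.5 mouse lay above every metformin mouse, beside 2.28% of all genes. Their summed signal, as log2, was 14.72 to 15.52 with PM2.5, 13.82 to 14.53 with metformin and 14.45 to 15.33 with air. In this sum the treated groups did not overlap and air overlapped both. With equal weight for each marker the treated groups did overlap, with mean deviations of 0.05 to 0.96 in PM2.5 mice and -0.63 to 0.13 in metformin mice. Ifi30, a lysosomal reductase of antigen-presenting cells, was 6.86, 8.30, 8.09, 9.36 and 9.70 with PM2.5 and 6.87, 6.26, 6.38, 6.55 and 6.69 with metformin and was higher by 1.91 ± 0.48 (adjusted p = 0.0456), a call lost without PM2.5 mouse 2, 3, 4 or 5 or any 1 of the 5 metformin mice (adjusted p 0.0159 to 0.138 over the 10 fits). Rgs1, a G-protein regulator of immune cells, was higher by 1.84 ± 0.38 (adjusted p = 0.0193), lost without PM2.5 mouse 4 or 5 or metformin mouse 4 (adjusted p 0.0087 to 0.0656 over the 10 fits). Mean signals over all arrays lay above 8.36 for 11 of the 22 macrophage markers and 10 of the 16 endothelial markers, and the others are limited by background. The part of macrophage or endothelial content in Ifi30, Rgs1 and Hmox1 was not tested.

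Several programmes showed at most 1 called gene. Unadjusted counts given for them stand beside 15.7% of all genes. Of 27 acute-phase genes 0 passed (limma; 6 at an unadjusted p under 0.05), and Saa1, serum amyloid A, was 9.90, 13.02, 9.08, 11.52 and 9.57 with PM2.5 and 13.02, 13.33, 12.93, 13.01 and 13.44 with metformin (-2.53 ± 0.93, adjusted p = 0.175). Lcn2, an iron-siderophore carrier of the acute-phase response, was at -1.17 ± 0.56 (adjusted p = 0.321), and Hamp, the iron hormone hepcidin, at 0.65 ± 0.23 (adjusted p = 0.155). Of 27 interferon-induced genes 0 passed (limma; 2 at an unadjusted p under 0.05), with a median of -0.04. Of 14 cytokine and NF-kappaB genes 0 passed (limma; 3 at an unadjusted p under 0.05, median 0.39). Mitochondrial complexes II to V had 0 of 39 (limma, 2 unadjusted) and a median of 0.01, and complex I had 1 of 36 (limma, 4 unadjusted). This was Ndufv3, named after its value was seen, higher by 0.60 ± 0.15 (adjusted p = 0.0456) at signals of at most 6.68. It was lost without PM2.5 mouse 2, 3, 4 or 5 or metformin mouse 2, 3, 4 or 5 (adjusted p 0.0246 to 0.126 over the 10 fits). Fgf21, a liver hormone of fasting and stress, was at 0.68 ± 0.51 (adjusted p = 0.565).

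The remaining lists gave 0 calls by limma. Their counts at an unadjusted p under 0.05 stand beside 15.7% of all genes. Triglyceride assembly had 0 of 11 (3 at an unadjusted p under 0.05), insulin and growth hormone signalling 0 of 20 (3 unadjusted), and bile acid synthesis and transport 0 of 21 (6 unadjusted). Immediate early genes had 0 of 17 (6 unadjusted), metformin transport and AMPK genes 0 of 13 (2 unadjusted), hepatokines 0 of 16 (4 unadjusted) and cytosolic ribosomal proteins 0 of 36 (6 unadjusted). Stellate cell and fibroblast markers had 0 of 13 (3 unadjusted), cholangiocyte markers 0 of 4 (1 unadjusted), neutrophil markers 0 of 6 (1 unadjusted) and adipocyte markers 0 of 4 (1 unadjusted). T and NK cell, erythroid and pancreatic acinar markers had 0 of 4, 0 of 2 and 0 of 5, with 0 unadjusted in each, and 0 B cell and plasma cell markers were tested.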

How the data were processed

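Single-channel arrays read liver RNA of 20 male ob/ob mice in 4 groups of 5. The deposited values are log2 signals of probe sets, from Affymetrix Expression Console per the submitters' processing notes; version, summary method and normalization are not given in the sources used here. The array named in the series text is not the one the probe set identifiers belong to, and genes were read from the annotation matching the identifiers. Of 22206 probe sets that are not controls, 19572 had 1 gene, 0 several and 2634 none. All 19572 symbols matched RefSeq. Where a gene had more than 1 probe set (55 genes), the brightest was kept. Genes at or below the 40th percentile of mean signal (log2 4.093, under the mean negative-control median of 4.49) were left out, which left 11703 of 19505 genes.

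Group means were fitted with limma 3.58.1 in R 4.3.3, in 1 model of 20 arrays with eBayes (16 residual and 5.657 prior degrees of freedom), which takes 1 variance per gene over all groups. All tests were two-sided, with Benjamini-Hochberg adjustment over all genes tested. The fit was tested on simulated data. There were 3 comparisons; those with filtered air give the reference level. Control signals were compared by exact permutation of 10 arrays (252 splits).

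Named are the 10 largest higher and lower genes that passed with the higher mean above 8.36, leaving out provisional names, up to 4 genes of the lowest p of each list with at least 2 passed, and a fixed set of metabolic and stress genes. The members and the 45 lists (933 entries, of which 184 were not tested) were chosen with earlier results of these data known. Promoters are RefSeq sequences of GRCm38.p6. Alternatives were other filters (none, the 60th percentile), median centring, quantile normalization, averaging probe sets, array weights, trend and robust eBayes, a 1.5-fold minimum, the 10 arrays alone, a negative-control covariate and leaving out each mouse. A fit without arrays 2 and 4 of the combined group was added after seeing the data. Precision is limited by the number of arrays.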

Additional observations from a re-analysis of the deposited data

Results flagged for a closer look

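Single mice stood apart from the other 4 of their group in 16 of 231 gene and group pairs (6.93%), by the gap to the nearest mouse over the range of the group against Dixon's 95% critical value. Chance flags about 1 in 20 such groups. Values are log2 signals. Arntl was 9.43 in PM2.5 mouse 3, against 10.36 to 10.56 in the others. Metformin mouse 1 had 7.89 for Plcxd2, and the others 9.22 to 9.54. For Per3, filtered-air mouse 2 read 6.97 beside 7.95 to 8.29. Cyp2d37-ps in PM2.5 mouse 1 was 9.51 and lay outside the 10.36 to 10.68 of the others. Dbi was 16.21 in metformin mouse 1, against 16.59 to 16.73 in the others. Filtered-air mouse 5 had 9.86 for Sgk1, and the others 8.68 to 8.97. For Ypel2, filtered-air mouse 2 read 9.18 beside 8.62 to 8.76. Pecam1 in PM2.5 mouse 1 was 8.85 and lay outside the 8.99 to 9.04 of the others. Emcn was 7.25 in metformin mouse 3, against 7.60 to 7.69 in the others. Filtered-air mouse 5 had 15.19 for Acaca, and the others 13.35 to 13.73. For Fgf21, filtered-air mouse 2 read 7.05 beside 4.56 to 5.13. Angptl4 in filtered-air mouse 1 was 10.93 and lay outside the 12.24 to 12.58 of the others. Angptl8 was 12.48 in metformin mouse 4, against 10.72 to 10.98 in the others. PM2.5 mouse 1 had 8.89 for Nr1d1, and the others 9.56 to 9.74. For Fads1, PM2.5 mouse 5 read 15.13 beside 14.13 to 14.40. Cyp3a13 in metformin mouse 1 was 16.51 and lay outside the 16.26 to 16.32 of the others.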

How the results depend on the processing

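The count of genes that passed between PM2.5 and metformin was 205. It became 121 with no filter, 485 with array weights and 49 to 262 when 1 mouse was left out, and 282 without combined-group arrays 2 and 4. The count over all list entries, 44, became 90 with array weights and 14 to 55 without 1 mouse. The lipogenesis count of 5 became 10 with array weights and 1 to 7 without 1 mouse. The endoplasmic reticulum count of 5 became 3 with no filter, 0 with the 10 arrays alone, 10 with array weights and 1 to 9 without 1 mouse. The endothelial count of 4 became 1 with no filter or median centring, 2 with the 10 arrays alone, 7 with array weights and 1 to 5 without 1 mouse. The core clock count of 5 ran from 2 to 7 and the output count of 4 from 2 to 5 without 1 mouse. PM2.5 against air gave 212 to 730 and metformin against air 159 to 434 without 1 mouse. The cause was not tested; the unfiltered fit and the fit of the 10 arrays alone differ by construction in the genes or samples used.

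The sign turned for 4 genes, all uncalled. Pck1 was at 0.0108 with quantile normalization and 0.0586 with the negative-control covariate, and leave-one-out values ran from -0.0692 to 0.102. Cyp1a2 was at -0.0211 with array weights and at -0.329 to 0.337 over the leave-one-out fits. For Ddit3 the leave-one-out values were -0.107 to 0.0698, and for Rbm3 -0.00239 to 0.445. Of the 47 named genes that passed, 16 passed in all 10 leave-one-out fits, 24 passed in all 11 other settings, 1 (Npas2) passed in the 10 that tested it, and 47 kept their direction when 1 mouse was left out. Differences at signals near the negative controls are limited by the floor. No paired analysis was possible because the replicate numbers were given in the order of the deposited samples and pair no mice.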
